A study of Mus musculus with 6 samples.

Results

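The 10 genes described here encode regulators that set epithelial or mesenchymal gene programmes: the Grainyhead-like transcription factors Grhl1, Grhl2 and Grhl3, the splicing regulators Esrp1 and Esrp2, and the transcription factors Zeb1, Zeb2, Snai1, Snai2 and Twist1 of the epithelial-mesenchymal transition (EMT). They were picked by gene symbol, and all 10 were among the 11417 genes of the deposited expression table. The series profiled poly(A) RNA of 3 established mouse mammary lines by bulk RNA sequencing, with 2 libraries per line and 6 in all, and its title names GRHL and PGR, the progesterone receptor, as controls of WNT4. All lines were untreated and grown on plastic with 10% serum. BC44 was fed RPMI with 5 µg/ml insulin, HC11 the same with 10 ng/ml EGF added, and C57MG a DMEM-based medium with 10 µg/ml insulin. Line and medium therefore cannot be told apart. The labels do not say that the libraries of a line came from separate cultures, so p-values measure the spread between these libraries, which may be technical.

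Grainyhead-like factors bind and activate genes of epithelial junctions and barriers, and Esrp proteins steer the splicing of transcripts such as Fgfr2 and Cd44 toward their epithelial forms. Zeb, Snai and Twist factors bind E-box sequences. Zeb and Snai proteins are repressors of Cdh1, which encodes E-cadherin, and of other epithelial genes, and Zeb factors are known to repress Esrp1 and to stand in mutual repression with the microRNA 200 family and with Grhl2. In the mammary gland, Snai2 is also known as a factor of basal epithelial cells.

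Levels are RPKM, that is, reads scaled by the authors to gene length and to the library's read total. The low values fell on steps of whole reads, from which the read total behind the scaling was estimated at 14445000 to 18290000 per library. Read numbers given below rest on that estimate, and a floor of 3 reads is used where a gene is at or near 0; both cover counting error only. Coordinates are those of GRCm38 (GENCODE M21), while the reads were aligned to mm9. The labels call all lines mammary epithelial. Epcam and Cdh1, defining epithelial genes, were at 92.1 to 242.2 and 107.2 to 137.3 RPKM in the BC44 and HC11 libraries, but at 0.949 and 1.09 RPKM in C57MG replicate 1 and listed at 0 in replicate 2. Of 13 epithelial markers 11 were listed in the table, and they summed to 4927 and 5132 RPKM in BC44, 2343 and 3213 in HC11, against 65.6 and 137.8 in C57MG, where Krt14 made up most of the sum. The 12 listed mesenchymal markers of 14 summed to 559.7 to 632.8 RPKM in BC44 and HC11 and to 7641 and 7909 in C57MG, led by S100a4 and Vim. All but Postn and Dcn were highest in C57MG. Postn was at 46.4 to 83.0 RPKM in the BC44 and HC11 libraries against 3.81 and 1.03 in C57MG. Dcn had 1.68 and 3.78 RPKM in HC11 and was listed at 0 in the other lines. BC44 had the basal keratins Krt5 and Krt14 at 1828 RPKM or more but the luminal Krt8 at no more than 0.064 and Krt18 at 0, while HC11 had all 4. The C57MG libraries thus went against the epithelial label by most of these markers. Of 7 immune and 5 endothelial markers 2 each were listed, and their sums reached at most 21.9 RPKM (Lyz2 and Cd68 in C57MG) and 2.38 RPKM.

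The Grhl and Esrp genes were high in BC44 and HC11 and near 0 in C57MG. Zeb1, Zeb2, Snai1 and Twist1 were highest in C57MG. Snai2 did not follow them and was highest in BC44. HC11 held an intermediate position for Zeb2, Snai1 and Twist1 while its Grhl and Esrp genes lay well above C57MG. In bulk RNA, fewer cells of a type and less RNA per cell cannot be told apart. Differences were tested with limma on log2(RPKM + 1) over the 10759 genes with at least 1 RPKM in at least 2 libraries, and a gene passed at a Benjamini-Hochberg adjusted p under 0.05. All 10 genes entered the test. Zeb1 did so through the C57MG libraries alone, the Grhl genes, Esrp genes and Twist1 only through the lines other than their lowest, and Zeb2 through C57MG and 1 HC11 library. A member that entered only through a line where it is high had to differ from its low line, so nothing is read from these counts.

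In BC44 against C57MG all 10 genes passed, where 71.7% of all tested genes did. The 5 Grhl and Esrp genes and Snai2 were higher in BC44, a direction called for 37.5% of tested genes, and 4 were higher in C57MG, against 34.1%. In HC11 against C57MG all 10 passed against a background of 70.5%, with the same split of 6 higher in HC11 (background 37.4%) and 4 higher in C57MG (33.2%). In BC44 against HC11 8 of 10 passed against a background of 47.7%. Grhl1, Grhl2, Esrp2 and Snai2 were higher in BC44 (background 24.7%), and Grhl3, Zeb2, Snai1 and Twist1 were higher in HC11 (23.0%). The comparisons share libraries, so their counts are not independent of each other. The libraries of BC44 and HC11 overlapped for Zeb1 and for no other member, and neither line overlapped with C57MG for any member; over all tested genes, libraries of the compared lines were apart for 73.0% in the BC44 and HC11 pair, 87.9% in the BC44 and C57MG pair, and 86.2% in the HC11 and C57MG pair.

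**Figure D1:**
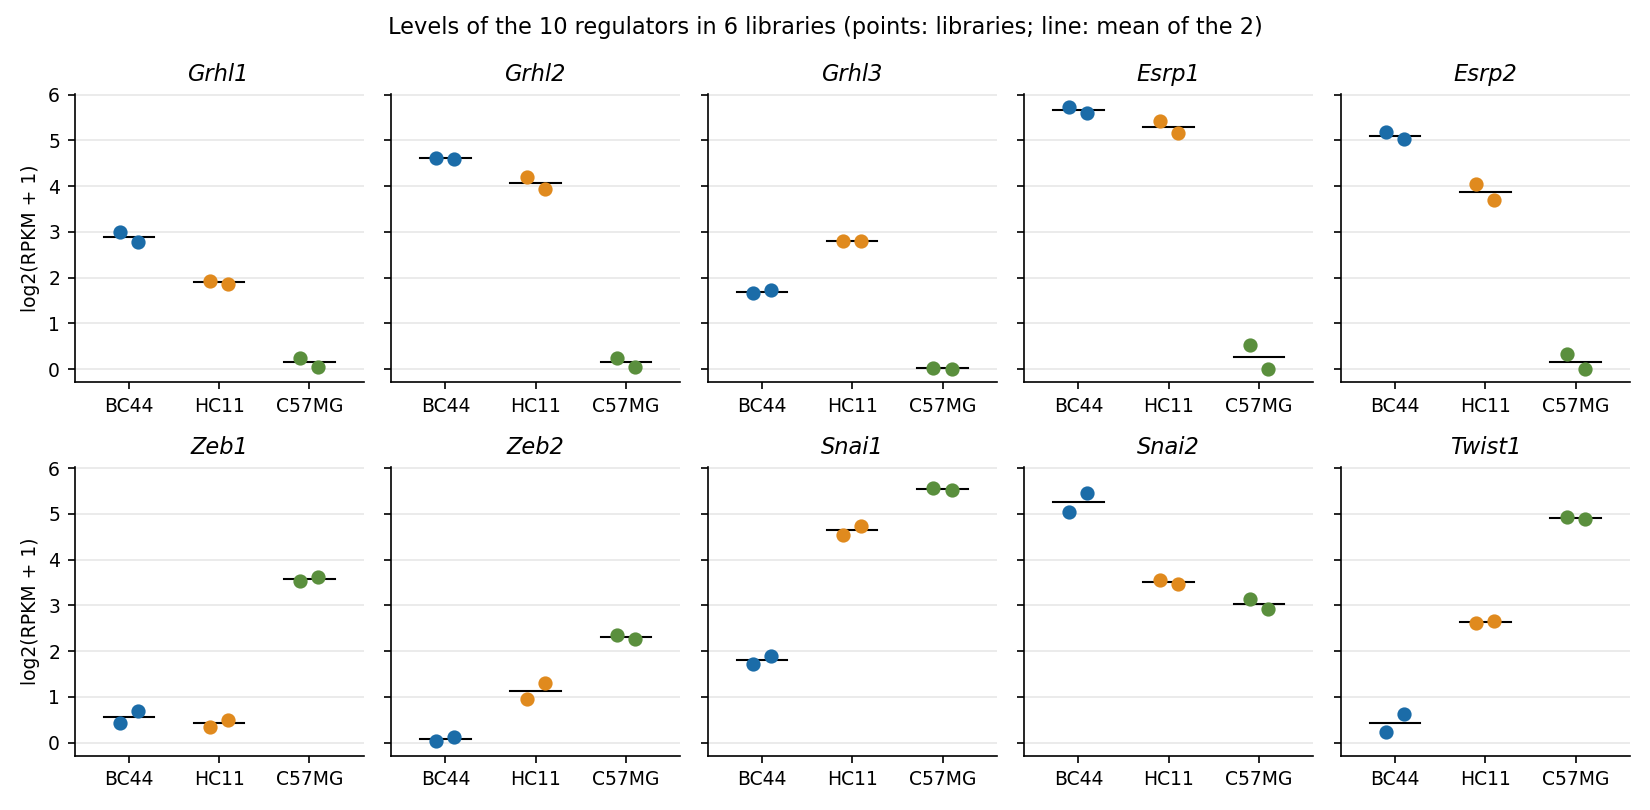
Level of each of the 10 genes as log2(RPKM + 1) in BC44, HC11 and C57MG, with 1 point per library and a line at the mean of the 2 libraries. The 5 Grhl and Esrp genes lie near 0 in C57MG, Zeb1 lies near 0.5 in BC44 and HC11, and Snai2 is highest in BC44.

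Grhl2 was the most abundant Grainyhead-like gene in BC44 and HC11. Grhl2, a factor known to maintain E-cadherin and claudin expression (ENSMUSG00000022286, chromosome 15, 37233036 to 37363569, plus strand), had 23.4 and 23.3 RPKM in BC44 replicates 1 and 2, 17.3 and 14.3 in HC11, against 0.191 and 0.035 in C57MG. The BC44 mean was 1.48 times the HC11 mean, with a log2 fold change of 0.54 (SE 0.13, limma adjusted p = 0.00990). That difference did not pass with a pseudocount of 0.1 (0.57, adjusted p = 0.211), nor without BC44 replicate 1 (0.0566) or replicate 2 (0.0531). Against C57MG the log2 fold change of Grhl2 was 4.46 in BC44 and 3.91 in HC11 (SE 0.13 each, limma adjusted p = 2.706e-07 and 3.299e-07), and 6.89 and 6.32 with a pseudocount of 0.1. C57MG replicate 1, with an estimated 30 reads of Grhl2, was 122-fold below the BC44 mean, and replicate 2 held 5 reads.

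Grhl1, which is known for its part in the control of desmosomal genes (ENSMUSG00000020656, chromosome 12, 24572283 to 24617391, plus strand), had 6.96 and 5.83 RPKM in BC44, 2.79 and 2.65 in HC11, against 0.190 and 0.037 in C57MG. BC44 was 2.35 times HC11, and the 3 lines were ordered BC44, HC11, C57MG without overlap. The log2 fold change was 0.99 for BC44 against HC11 (SE 0.12, limma adjusted p = 0.000542), and 2.73 and 1.74 for BC44 and HC11 against C57MG (adjusted p = 9.428e-07 and 1.101e-05). On the log2 scale with a pseudocount of 0.1 the last 2 values were 5.02 and 3.82, since the smaller constant compresses low levels less. The C57MG libraries held an estimated 19 and 3 reads of Grhl1.

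Grhl3, a factor of skin barrier formation (ENSMUSG00000037188, chromosome 4, 135541888 to 135573630, minus strand), was the only Grhl gene that was higher in HC11 than in BC44. Its levels were 2.16 and 2.32 RPKM in BC44, 5.93 and 5.93 in HC11, against 0.020 and 0 in C57MG. HC11 was 2.65 times BC44, and the log2 fold change of BC44 against HC11 was -1.10 (SE 0.09, limma adjusted p = 9.297e-05). Both C57MG libraries lay under the floor of 3 reads per library, so against C57MG the BC44 level of Grhl3 was at least 34.8-fold higher and the HC11 level at least 92.0-fold higher. The fitted log2 fold changes against C57MG, 1.68 in BC44 and 2.78 in HC11 (adjusted p = 3.092e-06 and 3.828e-07 by limma), became 4.42 and 5.78 with a pseudocount of 0.1. Within the family, Grhl2 made up 72.0% and 74.1% of the summed Grhl RPKM in the BC44 libraries and 66.5% and 62.5% in HC11. Grhl3 made up 6.63% and 7.38% in BC44 and 22.8% and 25.9% in HC11, so the make-up of the family differed between these lines although Grhl2 led in both.

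Esrp1 was the most abundant of the 10 genes in BC44 and in HC11, on the RPKM scale. Esrp1 (ENSMUSG00000040728, chromosome 4, 11331933 to 11386783, minus strand) reached 52.4 and 47.8 RPKM in BC44, 41.9 and 35.0 in HC11, against 0.439 and 0 in C57MG. These are the 88.5 and 84.4 percentiles of all listed genes in BC44 and HC11. BC44 and HC11 did not overlap, but their difference of 0.38 on the log2 scale did not pass (SE 0.18, adjusted p = 0.121 by limma). It passed when only the 4 libraries compared were fitted (0.0332), with the replicate block (0.0288), and without C57MG replicate 1 (0.0392) or replicate 2 (0.0384), settings that leave the value at 0.38 and change the estimate of spread. Against C57MG the log2 fold change was 5.41 in BC44 and 5.03 in HC11 (SE 0.18 each, limma adjusted p = 3.006e-07 and 4.317e-07). C57MG replicate 1 held an estimated 50 reads of Esrp1, 114-fold below the BC44 mean. Replicate 2 was listed at 0, at least 1640-fold below that mean at a floor set with the annotated exon length of 6305 bases. A shorter length in the authors' scaling would raise this floor and lower the fold.

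Esrp2, the paralogue with overlapping splicing activity (ENSMUSG00000084128, chromosome 8, 106130319 to 106136974, minus strand), separated BC44 from HC11 more than Esrp1. It had 35.1 and 31.6 RPKM in BC44, 15.6 and 11.98 in HC11, against 0.255 and 0 in C57MG. BC44 was 2.42 times HC11, with a log2 fold change of 1.23 (SE 0.16, limma adjusted p = 0.000703). With a pseudocount of 0.1 the value was 1.28 and no longer passed (adjusted p = 0.0912). Against C57MG the log2 fold change was 4.94 in BC44 and 3.71 in HC11 (adjusted p = 3.006e-07 and 9.846e-07 by limma), which became 7.47 and 6.19 with a pseudocount of 0.1. Esrp1 made up 59.9% and 60.2% of the summed Esrp RPKM in BC44 and 72.9% and 74.5% in HC11. The deposited values are per gene, so splice forms were not analysed here.

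Zeb1 was expressed in C57MG and lay under 1 RPKM in every BC44 and HC11 library. Zeb1, a zinc finger and homeodomain repressor (ENSMUSG00000024238, chromosome 18, 5591860 to 5775467, plus strand), had 10.6 and 11.3 RPKM in C57MG, 0.352 and 0.623 in BC44, against 0.266 and 0.414 in HC11. Against C57MG, the log2 fold change was -3.01 for BC44 and -3.16 for HC11 (SE 0.13 each by limma, adjusted p = 6.579e-07 and 6.708e-07). The C57MG mean was 22.4 times that of BC44 and 32.2 times that of HC11. BC44 and HC11 overlapped, and their difference did not pass (0.15, SE 0.13, limma adjusted p = 0.373). Estimated reads of Zeb1 were 52 and 109 in BC44 and 50 and 61 in HC11, so these low levels lay well above the floor of 3 reads.

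Zeb2, the related repressor (ENSMUSG00000026872, chromosome 2, 44983632 to 45117395, minus strand), separated all 3 lines. It had 4.13 and 3.79 RPKM in C57MG, 0.942 and 1.45 in HC11, against 0.028 and 0.087 in BC44. C57MG was 3.31 times HC11, and HC11 was 42.8-fold above BC44 replicate 1 and 13.8-fold above replicate 2, which held an estimated 8 and 30 reads. The log2 fold change was -1.18 for HC11 against C57MG, -1.05 for BC44 against HC11 and -2.23 for BC44 against C57MG (SE 0.13 each, limma adjusted p = 0.000125, 0.000563 and 3.772e-06). With a pseudocount of 0.1 the values with BC44 were -3.04 and -4.71. Zeb1 exceeded Zeb2 by 2.56 and 2.98 times in the C57MG libraries and was 0.282 and 0.285 times Zeb2 in HC11, a reversal of the order of the paralogues on the RPKM scale. RPKM depends on the gene length used, and the annotated exons of Zeb2 sum to 19942 bases over 29 transcripts, against 10266 for Zeb1, so levels of the pair are less certain than the ratios between lines.

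The 3′ UTRs of Zeb1 and Zeb2 hold more matches to the microRNA 200 family than those of the other members. Matches to the seed (bases 2 to 8) of the microRNA 200 family were counted in the longest annotated 3′ UTR of 10463 tested genes. Zeb1 and Zeb2 each had 9 matches, 5 to the seed of miR-200b, miR-200c and miR-429 (site CAGTATT) and 4 to that of miR-200a and miR-141 (site CAGTGTT). Of all 10463 UTRs 3 (0.0287%) had as many, and the other one, D10Wsu102e, named after its count was seen, had 15 in an annotated UTR of 122583 bases against 2401 for Zeb1 and 4941 for Zeb2. Snai2 had 2 matches, Grhl1, Grhl2 and Snai1 had 1 each, and Grhl3, Esrp1, Esrp2 and Twist1 had none, where 31.2% of UTRs had at least 1. The microRNAs themselves were not measured, and a match is a description of the letters and not a tested site. One microRNA of each seed group (RefSeq, GRCm38.p6) is shown with its seed in capitals, followed by 3 of the Zeb2 matches (GENCODE M21, GRCm38, minus strand) with the seed match in capitals, all 5′ to 3′, to show the pairing letters.
miR-200b-3p: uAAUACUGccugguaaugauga
miR-200a-3p: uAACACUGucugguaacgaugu
Zeb2 3′ UTR, miR-200b group, chr2:44988108-44988130: cgcactacagtgcatCAGTATTa
Zeb2 3′ UTR, miR-200b group, chr2:44987527-44987549: tcatactgtagtgtaCAGTATTa
Zeb2 3′ UTR, miR-200a group, chr2:44987784-44987806: cctttgcaccagcttCAGTGTTa

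**Figure D2:**
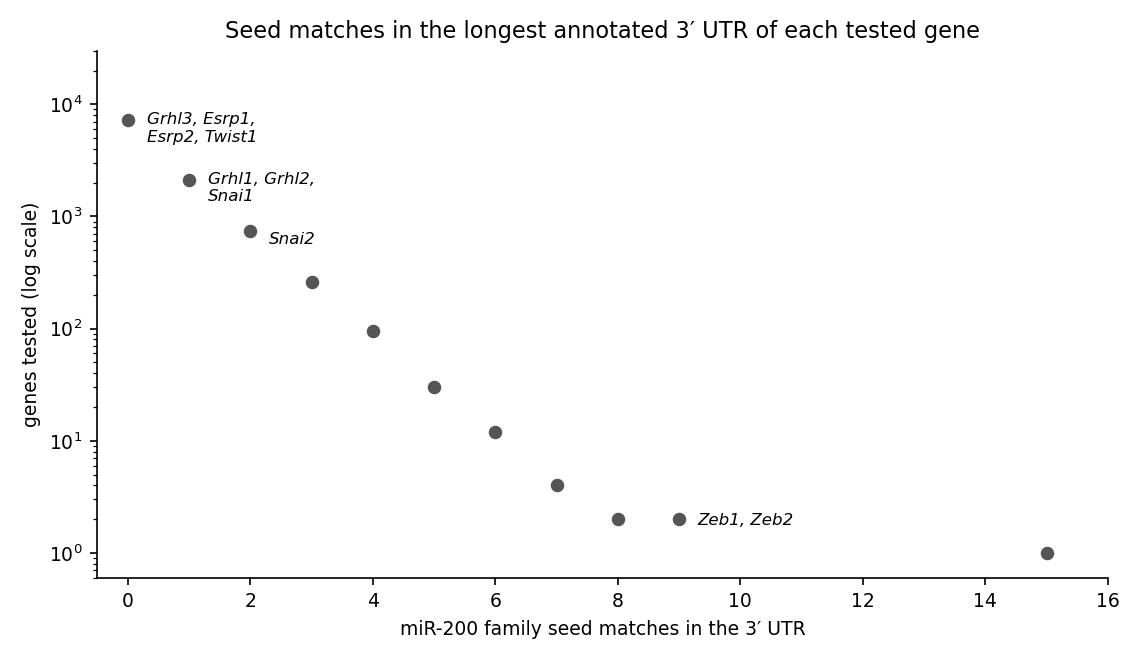
Number of tested genes (log scale) by the number of microRNA 200 family seed matches in their longest annotated 3′ UTR, with the 10 regulators named beside their count. Zeb1 and Zeb2, at 9 matches, are the 2 genes of that count, and 1 gene lies above them at 15.

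Snai1 was the most abundant of the EMT factors in C57MG and in HC11. Snai1, a zinc finger repressor of Cdh1 (ENSMUSG00000042821, chromosome 2, 167538195 to 167542814, plus strand), had 46.6 and 44.8 RPKM in C57MG, 22.3 and 25.6 in HC11, against 2.28 and 2.72 in BC44. C57MG was 1.91 times HC11 and 18.3 times BC44, and HC11 was 9.59 times BC44, with no overlap between lines. The log2 fold change was -0.91 for HC11 against C57MG, -2.83 for BC44 against HC11 and -3.74 for BC44 against C57MG (SE 0.11 each, limma adjusted p = 0.000179, 2.264e-06 and 2.706e-07). The same HC11 libraries had Esrp1 at 35.0 to 41.9 and Grhl2 at 14.3 to 17.3 RPKM.

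Snai2 had the reverse order. Snai2, also called Slug (ENSMUSG00000022676, chromosome 16, 14705852 to 14709385, plus strand), had 32.1 and 42.9 RPKM in BC44, 10.8 and 10.0 in HC11, against 7.85 and 6.58 in C57MG. BC44 was 3.59 times HC11 and 5.20 times C57MG, with log2 fold changes of 1.74 and 2.22 (SE 0.15 each, limma adjusted p = 8.712e-05 and 7.321e-06). The smaller difference of HC11 over C57MG, 0.48 (SE 0.15, adjusted p = 0.0215 by limma), did not pass without C57MG replicate 2 (0.37, 0.119) or without HC11 replicate 1 (0.43, 0.0734). The ratio of Snai2 to Snai1 was 14.1 and 15.7 in the BC44 libraries, 0.485 and 0.392 in HC11, against 0.168 and 0.147 in C57MG. BC44 thus stood apart from the other lines in the ratio of the paralogues, while their summed RPKM lay between 33.1 and 54.5 in all 6 libraries.

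Twist1, a basic helix-loop-helix factor (ENSMUSG00000035799, chromosome 12, 33957671 to 33959829, plus strand), was graded over the 3 lines. It had 29.7 and 28.7 RPKM in C57MG, 5.17 and 5.36 in HC11, against 0.169 and 0.532 in BC44. C57MG was 5.56 times HC11. Against the C57MG mean, BC44 replicate 1 was 173-fold and replicate 2 54.9-fold lower, on an estimated 4 and 15 reads. The log2 fold change was -2.27 for HC11 against C57MG, -2.23 for BC44 against HC11 and -4.50 for BC44 against C57MG (SE 0.14 each, limma adjusted p = 5.527e-06, 2.008e-05 and 2.856e-07). With a pseudocount of 0.1 the value for BC44 against HC11 was -3.70.

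**Figure D3:**
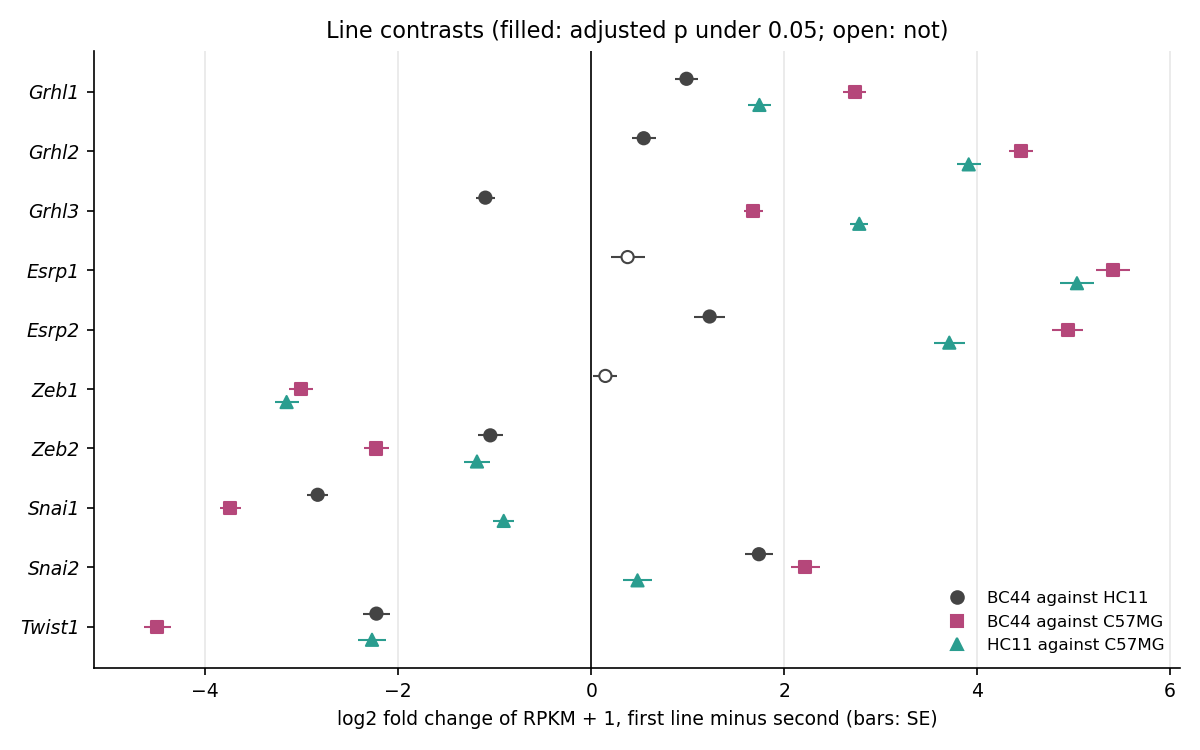
Log2 fold change of RPKM + 1 for each gene in the 3 line contrasts, first line minus second, with bars of 1 SE from limma. Filled symbols passed at an adjusted p under 0.05; the open symbols are Esrp1 and Zeb1 in BC44 against HC11.

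The promoter table (RefSeq, GRCm38.p6) held windows of Grhl1, Grhl3, Zeb2, Snai1 and Twist1, and the 250 bases before each start were searched on both strands. CAGGTG, the E-box form known to be bound by Zeb and Snai factors (CACCTG on the other strand), was present in 17.2% of 32851 such windows. Among the members it was present once in Grhl3, starting 19 bases before the annotated start, and once in Snai1, 126 bases before it. The general E-box CANNTG, which includes it, was in 66.2% of windows. None of the 2 windows of Grhl1, 4 of Zeb2 and 1 of Twist1 held CAGGTG. The general Grainyhead-like motif AACNNGTT was present in 3.64% of windows and in none of these, and its full palindrome AACCGGTT in 0.116%. These windows say nothing of enhancers, and no binding was measured. The Grhl3 and Snai1 windows, which hold the E-box in a gene lowest and a gene highest in C57MG, are printed 5′ to 3′ on the gene's strand with that E-box in capitals.
Grhl3, chr4:135573633-135573882, minus strand: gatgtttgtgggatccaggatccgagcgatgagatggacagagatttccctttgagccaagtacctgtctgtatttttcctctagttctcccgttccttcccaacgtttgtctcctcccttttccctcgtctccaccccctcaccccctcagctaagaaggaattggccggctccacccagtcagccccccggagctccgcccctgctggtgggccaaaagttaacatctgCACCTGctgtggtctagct
Snai1, chr2:167537945-167538194, plus strand: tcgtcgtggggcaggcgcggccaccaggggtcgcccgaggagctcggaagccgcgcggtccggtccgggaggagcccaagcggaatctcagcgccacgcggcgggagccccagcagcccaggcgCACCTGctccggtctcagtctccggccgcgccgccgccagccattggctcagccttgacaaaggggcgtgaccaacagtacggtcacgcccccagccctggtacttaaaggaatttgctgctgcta

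Set side by side, the summed levels of the classes separated C57MG from the other lines in opposite directions, and BC44 and HC11 overlapped in the second. The Grhl and Esrp genes summed to 120.1 and 110.9 RPKM in BC44, 83.4 and 69.9 in HC11, against 1.10 and 0.072 in C57MG. The Zeb, Snai and Twist genes summed to 34.9 and 46.8 RPKM in BC44, 39.5 and 42.9 in HC11, against 98.9 and 95.2 in C57MG. The log2 ratio of the first sum to the second was 1.78 and 1.24 in BC44, 1.08 and 0.70 in HC11, against -6.50 and -10.37 in C57MG, where the first sum of replicate 2 rests on a few reads. BC44 and HC11 reached their similar second sums with different genes: Snai2 made up 91.9% and 91.5% of it in BC44, and Snai1 56.5% and 59.8%, Snai2 27.4% and 23.4%, and Twist1 13.1% and 12.5% in HC11. In C57MG Snai1 made up 47.1% in each library and Twist1 up to 30.2%.
The pair of Esrp1 and Zeb1 gave a plainer split. The log2 ratio of Esrp1 to Zeb1, with 0.1 RPKM added to each, was 6.86 and 6.05 in BC44, 6.84 and 6.09 in HC11, against -4.31 and -6.83 in C57MG. For Grhl2 to Zeb1 it was 5.70 and 5.02, 5.57 and 4.81, and -5.20 and -6.40 in the same order. BC44 and HC11 overlapped in both ratios. These sums and ratios are descriptions with no test, and with libraries in 3 separate groups no correlation over the 6 libraries was computed.

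**Figure D4:**
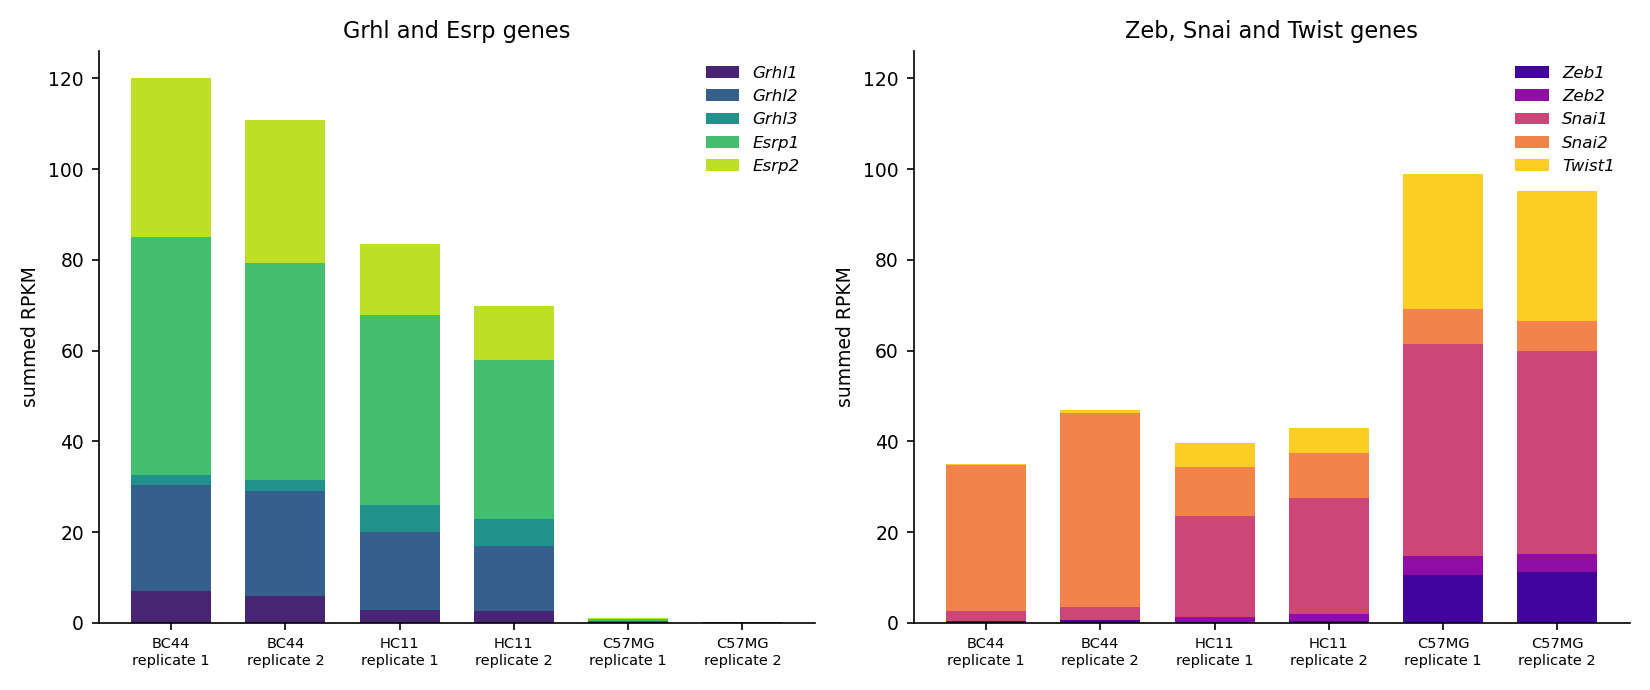
Stacked RPKM of the Grhl and Esrp genes (left) and of the Zeb, Snai and Twist genes (right) in each of the 6 libraries. The right-hand sums of BC44 and HC11 lie between 34.9 and 46.8 RPKM, with Snai2 as the largest part in BC44 and Snai1 in HC11.

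Some low levels of the members lay close to the median level of genes private to another line. Genes private to BC44 were taken as those with at least 20 RPKM there, no more than 2% of that in HC11 and no more than 5% in the other C57MG library. The median of these 11 genes in C57MG replicate 1 was 0.729% of the BC44 level, and in replicate 2 it was 0, with 8 genes listed at 0. In C57MG replicate 1 Grhl2, Esrp1 and Esrp2 were at 0.817%, 0.876% and 0.764% of their BC44 means and Grhl1 at 2.97%. In replicate 2 they were at 0.150%, 0, 0 and 0.579%. Genes private to C57MG, defined the same way, had a median of 0.666% (73 genes) of their C57MG level in BC44 replicate 1 and of 2.02% (72 genes) in replicate 2. Zeb2 was at 0.707% and 2.20% and Twist1 at 0.578% and 1.82% in these libraries, close to those medians. Zeb1, at 3.22% and 5.70%, and Snai1, at 4.98% and 5.95%, lay above them. In HC11 the private genes of C57MG had medians of 0.251% and 0.350%, and Zeb2 (23.8% and 36.7%), Snai1 (48.8% and 56.0%) and Twist1 (17.7% and 18.3%) were far above. These members do not meet the definition of a private gene. Grhl2, Esrp1 and Esrp2 were at 35.9% to 83.6% of their BC44 means in the HC11 libraries, and Zeb2 and Twist1 were not private to C57MG. Genes private to HC11, defined the same way, had medians of 0.0413% and 0.141% of their HC11 level in BC44 replicates 1 and 2. In C57MG replicates 1 and 2 these medians were 0.0105% and 0.0323%. The source of the members' low levels was not tested.

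**Figure D5:**
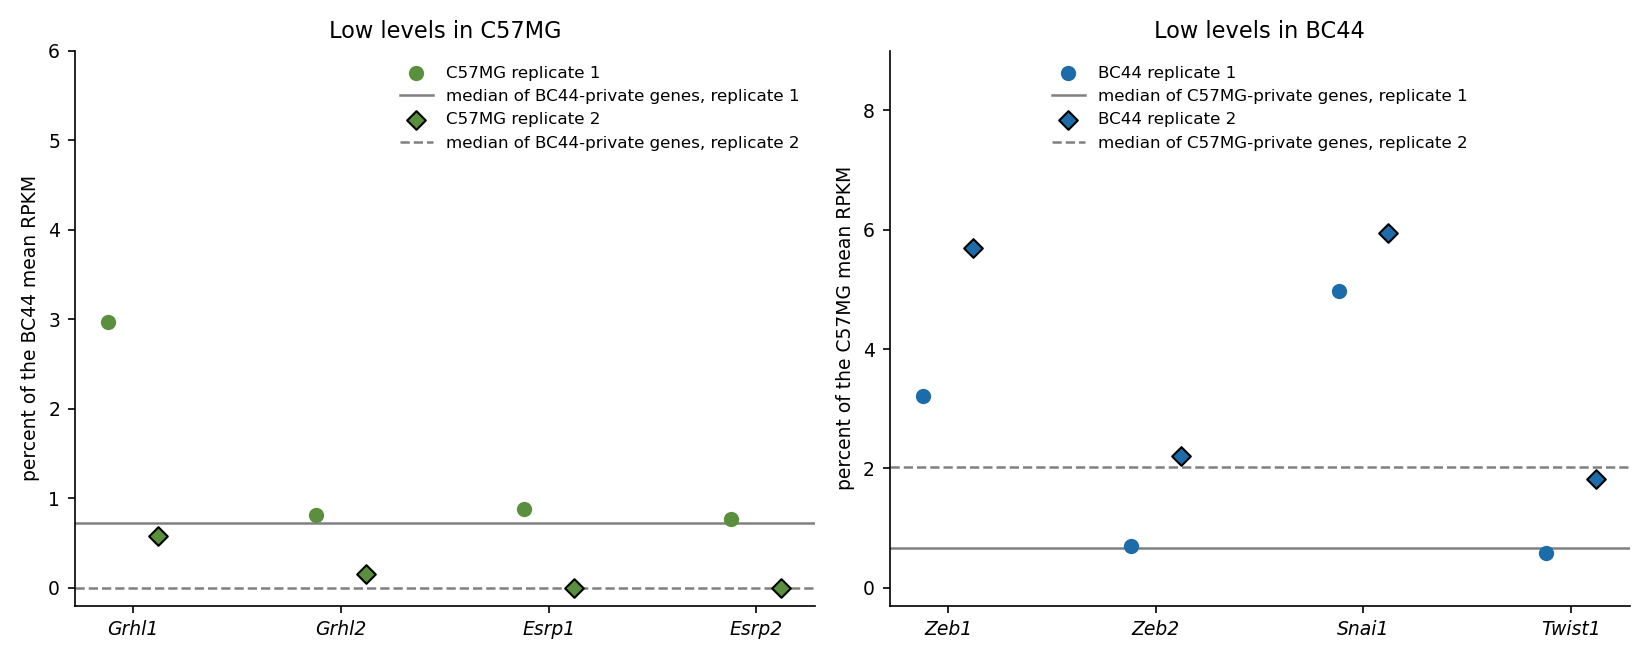
Level of members in their low line as a percent of the mean RPKM in the other line named on the axis, for C57MG (left) and BC44 (right), with 1 symbol per replicate and grey lines at the median of genes private to the other line. Grhl2, Esrp1 and Esrp2 in C57MG replicate 1 and Zeb2 and Twist1 in both BC44 replicates lie near the grey lines, and Zeb1 and Snai1 lie above them.

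Genes known as targets of these factors were listed and read beside them. Of 14 epithelial genes known as targets of Grainyhead-like factors, all of which were tested, 13 were higher in BC44 than in C57MG and 12 higher in HC11 than in C57MG, with none called lower. Their median log2 fold changes were 3.04 and 4.64, against 0.04 and 0.03 over all tested genes. Epcam (7.16), Spint2 (6.71), which encodes a serine protease inhibitor, and Cdh1 (6.24) had the largest changes in HC11 against C57MG, with limma adjusted p = 1.054e-06, 3.861e-07 and 1.399e-06. Dsg1a, a desmoglein gene, had the smallest there (-0.04, adjusted p = 0.801 by limma): it had 6.92 and 9.23 RPKM in BC44 and was listed at 0 in both HC11 libraries. Of 13 epithelial genes known as repressed by Zeb or Snai factors, 9 were tested and all 9 were higher in both BC44 and HC11 than in C57MG, with medians of 5.58 and 4.33. Cdh1 and Epcam belong to both lists. The largest changes in BC44 against C57MG were those of Dsp, which encodes desmoplakin (6.63), Cdh1 (6.48) and Epcam (6.24), and the smallest that of the polarity gene Llgl2 (1.75, limma adjusted p = 2.227e-06). Of the genes tested, 13 of 14 on the first list and 8 of 9 on the second were not at 1 RPKM in both C57MG libraries. They met the filter through BC44 or HC11, where they are high, so nothing is read from the counts and medians of these lists.

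Of 13 other transcription factors of epithelial cells, 11 were tested. In BC44 against C57MG 9 were higher and 1 lower, beside 37.5% and 34.1% of all tested genes. In HC11 against C57MG 8 were higher and 2 lower, beside 37.4% and 33.2%. Klf5 and Ovol1, at no more than 0.114 RPKM in C57MG, met the filter through BC44 and HC11, where they are high. A gene that entered in this way had to differ from C57MG, so nothing is read from these counts. With only genes of a mean of at least 5 RPKM tested, 7 remained. Of these, 6 were higher in BC44 than in C57MG, and in HC11 against C57MG 5 were higher and 1 lower. Of the Grainyhead-like targets 8 of 9 passed in BC44 against C57MG. With that filter 71.7% and 70.4% of all tested genes passed in these contrasts. The high lines alone can lift a gene to that mean, so nothing is read from these counts either. Klf5 had 26.3 and 31.8 RPKM in BC44, 17.4 and 24.0 in HC11, against 0.096 and 0 in C57MG, a log2 fold change of 4.84 from C57MG to BC44 (adjusted p = 3.284e-07 by limma). For Ovol1, which encodes a zinc finger factor, the same change was 3.29 (adjusted p = 2.353e-05 by limma). Klf4 was at 46.7 and 48.5 RPKM in BC44 and 53.6 and 46.0 in C57MG and did not pass (-0.06, limma adjusted p = 0.585). Of the 3 CP2 genes, relatives of the Grainyhead-like factors, 2 were tested, and neither was higher in BC44: Ubp1 had 20.5 and 23.8 RPKM in BC44 and 21.8 and 23.1 in C57MG (-0.02, adjusted p = 0.839 by limma), and Tfcp2 was lower in BC44 (-0.61, 0.00495). With no filter on low values all 3 were tested. In BC44 against C57MG 1 was then higher and 1 lower, where 71.1% of all tested genes passed.

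Other factors linked to EMT were read in the same way. Of 18 listed, 15 were tested. In BC44 against C57MG 6 were higher in BC44 (background 37.5%) and 7 in C57MG (34.1%). In HC11 against C57MG 4 were higher in HC11 (37.4%) and 6 in C57MG (33.2%). Prrx2 and Twist2, described below, were at no more than 0.578 RPKM outside C57MG and met the filter through C57MG alone. Genes that entered in this way had to differ from the other lines, so nothing is read from these counts. The medians of the 15 factors, -0.11 and 0.00, stood beside 0.04 and 0.03 for all genes. They moved with the settings, which also changed the genes tested. Without C57MG replicate 2 they were 0.06 and 0.18 over 13 tested genes. A gene at 1 RPKM in C57MG alone cannot meet the filter there. In HC11 against C57MG the median was -0.35 over 14 genes without HC11 replicate 1. It was -0.545 among the 12 genes averaging at least 5 RPKM. Of these 12 genes 2 were higher in HC11 and 6 in C57MG, and nothing is read from these counts either. Twist2, the paralogue of Twist1, had 22.7 and 25.0 RPKM in C57MG, 0.567 and 0.578 in HC11, against 0.103 and 0.216 in BC44 (BC44 against C57MG -4.42, limma adjusted p = 2.706e-07), so it was low in HC11 where Twist1 was at 5.17 and 5.36 RPKM. The homeobox gene Prrx2 (24.3 and 27.99 RPKM in C57MG, at most 0.350 in the other lines) and the AP-1 gene Fosl1 (102.0 and 64.6 in C57MG, 22.3 and 56.6 in HC11, 1.24 and 5.04 in BC44) had the other largest changes, -4.49 and -4.48 (limma adjusted p = 2.847e-07 and 0.000182). Runx2 had the smallest (-0.08, limma adjusted p = 0.498).

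Other splicing regulators had smaller log2 fold changes than the Esrp genes in HC11 against C57MG. Of 15 tested of 18 listed, 4 were higher in HC11 (background 37.4%) and 6 in C57MG (33.2%), with a median of -0.19 against 0.03 for all genes. In BC44 against C57MG 7 were higher in BC44 (37.5%) and 5 in C57MG (34.1%). The largest changes in HC11 against C57MG were those of Mbnl3 (2.29, limma adjusted p = 4.876e-06), Rbm47 (1.25, 2.517e-05) and Rbfox2 (-1.02, 6.697e-05). Rbfox2, which encodes another splicing factor of EMT, had 31.9 and 33.7 RPKM in C57MG and 14.5 to 17.9 in the other libraries. Khdrbs1, at 45.3 to 48.5 RPKM in all libraries, changed least (0.03, limma adjusted p = 0.707). Of 18 tested genes with Esrp-controlled splicing, 7 were higher in BC44 and 9 in C57MG, beside 37.5% and 34.1% of all tested genes. In HC11 against C57MG 7 were higher in HC11 and 8 in C57MG, beside 37.4% and 33.2%, so their gene levels had no common direction. Fgfr2 had 34.6 and 37.2 RPKM in BC44 but 3.07 and 3.30 in C57MG, with 1.79 and 1.27 in HC11, so HC11 had the least Fgfr2 of the lines. Plekha1 was higher (2.40) and Itga6 lower (-2.63) in BC44 than in C57MG, with limma adjusted p = 5.437e-07 and 2.259e-06, and Macf1 changed least (-0.08, 0.575).

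The list of cofactors of Zeb and Snai repressors and regulators of their protein stability held 20 genes, and all 20 were tested. In BC44 against C57MG 11 were higher in BC44 (background 37.5%) and 4 in C57MG (34.1%). Their median was 0.33 on the log2 scale, against 0.04 for all genes. In HC11 against C57MG 11 were higher in HC11 (37.4%) and 3 in C57MG (33.2%), with a median of 0.27 against 0.03. Ajuba, a LIM protein that binds Snai proteins, had 83.0 and 103.2 RPKM in BC44, 51.2 and 54.2 in HC11, against 25.9 and 28.2 in C57MG (1.74, limma adjusted p = 6.299e-06). Kdm1a, the histone demethylase recruited by Snai1 (1.29), and Smarca4, a chromatin remodeller (1.18), were also higher in BC44 than in C57MG (limma adjusted p = 1.682e-05 and 4.135e-06), and Suz12 changed least (-0.04, 0.681).

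The genes closest to each member over the 6 libraries were found by the Euclidean distance between log2(RPKM + 1) profiles, each centred on its own mean. The added 1 compresses low levels, so close profiles need not have like fold changes. Ctsl, the closest to Grhl3, had 95.2 and 95.3 RPKM in C57MG, where Grhl3 was under the floor of 3 reads. For Grhl1 and Snai2, also close, the BC44 mean was 56.3 and 5.20 times the C57MG mean. St14, which encodes the protease matriptase and is on the Grainyhead-like list, was closest to Esrp1 (distance 0.141), with 52.7 and 48.5 RPKM in BC44, 39.5 and 35.4 in HC11, against 0.314 and 0 in C57MG. Ucp2 (0.204) and Tpm2 (0.326) followed. Myh14 was closest to Esrp2 (0.159), before Bbox1 (0.381) and Krt14 (0.403). Rps6ka6, Evl and Kank1 were closest to Grhl2 (0.175, 0.258 and 0.332), Shroom3, Dlx6os1 and Rnf150 to Grhl1 (0.112, 0.195 and 0.204), and Ctsl, 2610035D17Rik and Camk1 to Grhl3 (0.308, 0.311 and 0.331).
For the EMT factors, Kank4os, Akr1c12 and Dcdc2c were closest to Zeb1 (0.103, 0.125 and 0.178) and Masp1, Rap1gap2 and Sh3kbp1 to Zeb2 (0.198, 0.298 and 0.314). Gm5662, Lhfpl2 and Tpd52l2 were closest to Snai1 (0.293, 0.356 and 0.392), and Ttc39b, Fmnl3 and Cmtm3 to Twist1 (0.231, 0.391 and 0.391). The genes closest to Snai2, Il22ra1, Tbc1d30 and Cntn2 (0.250, 0.285 and 0.383), had their highest level in BC44 at 3.49 to 4.66 RPKM and at most 0.043 RPKM in C57MG. Among the members themselves, the closest pair was Grhl2 with Esrp2 (0.717), followed by Grhl2 with Esrp1 (1.24), Esrp1 with Esrp2 (1.35) and Grhl1 with Snai2 (1.35). Levels of antisense genes such as Kank4os and of members of gene families such as Akr1c12 are uncertain, since how shared or overlapping reads were counted is not given in the sources used here.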

How the data were processed

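Bulk RNA sequencing of poly(A) RNA was read from 1 deposited table with 6 libraries. Values are RPKM computed by the authors and deposited with 3 decimals. Reads were aligned with STAR to mm9, per the submitters' processing notes. The counter, annotation and gene lengths are not given in the sources used here. Identifiers and symbols of all 11417 genes matched GENCODE M21 (GRCm38), which supplied coordinates, exon lengths and 3′ UTRs. No position was converted.

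Groups follow the library titles. The log2(RPKM + 1) values were fitted with limma 3.58.1 (R 4.3.3, lmFit and eBayes with trend, two-sided) over 10759 genes in all 6 libraries, with Benjamini-Hochberg adjustment per contrast. The other 658 genes were under the filter. The fit was tested on simulated data in which 200 of 10246 genes were shifted by 1.5 on the log2 scale in BC44. Against HC11 and C57MG 191 and 192 of the 200 were called, with 7 and 11 wrong calls. Far fewer genes differed there than were called in the real contrasts.

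For single-isoform genes, 43 to 66 low values per library (RPKM times exon length) lay within 0.1 of a whole number of reads in 81.8% to 90.7% of cases, against 20.0% by chance. Length-weighted values summed to 1.29 to 1.36 times what the RPKM scale allows, so read numbers are estimates. A comparison of 2 libraries with 2 cannot pass an exact permutation test, so none was used.

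The members and gene lists were chosen with earlier results of these data known. Named beside the 10 members were, per list, the 3 genes with the largest and the 1 with the smallest change in the contrast with the largest list median, and the 3 genes closest to each member. D10Wsu102e was named after its value was seen. One gene that this rule names is not reported here. The alternatives changed the pseudocount (to 0.1), the filter (none, or a mean of 5 RPKM or more), the scaling (quantile or median-ratio), the libraries (the 4 compared, or 1 left out), the variance model (no trend, or robust) and the replicate block.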

Additional observations from a re-analysis of the deposited data

How the results depend on the processing

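No member's direction reversed under any of the 9 changed fits or the 6 fits that left out 1 library. The members called numbered 8 for BC44 against HC11, 10 for BC44 against C57MG and 10 for HC11 against C57MG. With a mean of at least 5 RPKM it was 5, 6 and 6, since only 6 members were then tested, where 48.3%, 71.7% and 70.4% of all tested genes passed. Leaving out single libraries gave 7 to 9, 9 to 10 and 8 to 10, in part because 9 members were tested without a C57MG library. Over all tested genes the called share then ran from 34.1% to 45.0%, 59.6% to 75.2% and 56.7% to 69.4%, against 47.7%, 71.7% and 70.5% with all libraries. In the fit with the replicate block 9, 10 and 10 members passed, and 5350, 7875 and 7721 genes against 5129, 7713 and 7590 without it. Deviations from the line mean, correlated over 10759 genes between libraries that share a number, gave 0.354 for BC44 and HC11. They gave -0.04 for BC44 and C57MG and 0.04 for HC11 and C57MG. The numbers were therefore not taken to pair libraries over all lines. Whether they pair those of BC44 and HC11 was not tested. Esrp1 was the member whose call in BC44 against HC11 the block changed (adjusted p = 0.0288 by limma), and the block changed no other member's call. Counts of the reference lists under these alternatives were added after the data were seen. Depth limits the members at or near 0: Grhl3, Esrp1 and Esrp2 in C57MG replicate 2 are bounded by 3 reads. With the annotated exon lengths this is 0.069, 0.0305 and 0.0444 RPKM.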
